A study of Mus musculus with 24 samples.

Results

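Dynlt3, Srpr, Dok4, Zmpste24, D1Ertd622e and Adh7 are 6 of the 13534 genes counted in NIH3T3 mouse fibroblasts, and of the 13025 genes to which the authors' deposited table gives no predicted miR-29 site. They were selected for the lack of a site mark and on the input libraries themselves. Each was higher in cells given a miR-29b mimic than in cells given a scrambled mimic. The input difference therefore describes how the genes were chosen and is given without a test. For the 6 genes only the comparison of pulldowns, whose levels the choice did not use, is tested. The spread behind that test was estimated over the inputs as well. NIH3T3 is an established embryonic fibroblast line. The cells were transfected with a miR-29b mimic or a scrambled mimic at 10 nM, both carrying the photo-crosslinkable nucleoside CNVK, and were harvested 8 h after a medium top-up at 24 h. RNA captured with the mimic (pulldown) and RNA before capture (input) were sequenced, with 4 whole-cell libraries each of miR-29b pulldown, scrambled pulldown, miR-29b input and scrambled input. Cytoplasmic and nuclear fractions gave 8 further libraries, 1 for each fraction, mimic and RNA type. All groups thus carry a transfected mimic, and untransfected cells were not analysed here.

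A microRNA guides Argonaute proteins to messenger RNAs that pair with its seed, and the usual outcome is less of that messenger RNA or less of its protein. The miR-29 family is known in fibroblasts for targeting collagens and other matrix genes. The 6 genes described here lie outside that set and have diverse roles. Dynlt3 encodes a Tctex-type light chain of cytoplasmic dynein, the motor that carries cargo along microtubules. Srpr encodes the alpha subunit of the signal recognition particle receptor, which docks ribosomes making secretory proteins at the endoplasmic reticulum. Dok4 is a docking adaptor of receptor tyrosine kinases, and Zmpste24 is the metalloprotease that trims prelamin A to lamin A. D1Ertd622e, named Macir in RefSeq, encodes a protein that in human cells binds the lipid-cargo carrier UNC119. Adh7 is a class IV alcohol dehydrogenase that oxidises retinol and ethanol.

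The mature strand of the microRNA is shown because a site mark in the table refers to matches of its seed. RefSeq (GRCm38.p6) gives the strand for 2 precursor genes, on chromosomes 1 and 6, and the mature strands of miR-29a and miR-29c have the same seed; capitals mark bases 2 to 8.
mmu-miR-29b-3p: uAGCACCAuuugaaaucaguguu
mmu-miR-29a-3p: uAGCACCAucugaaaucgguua
mmu-miR-29c-3p: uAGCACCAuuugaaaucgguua
All 4 site marks in the authors' deposited table (by their column names: any site, an 8-mer, a context mark, and the 8-mer and context together) were negative for each of the 6 genes. The choice required the any-site mark to be negative, so these marks describe the selection and are no finding about the genes. Whether the 6 genes hold seed matches elsewhere in their transcripts was not examined here.

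The listed counts per whole-cell library ran from 7409157 (scrambled pulldown replicate 1) to 55153996 (miR-29b input replicate 4). The table headers call replicates 1 to 3 lysed and replicate 4 intact, and replicate 4 stood apart from the others of its group in both inputs and in the miR-29b pulldown on the third principal component, which held 17.8% of the variance. The labels do not tie the replicates to separate cultures, and every p-value below reflects variation among these libraries only, part of which may be technical. Of 14 fibroblast markers 13 were counted, with a summed level of 9956 to 18835 CPM (read counts scaled to library size) with miR-29b against 5215 to 5509 CPM with the scrambled mimic in pulldowns, and 4954 to 6464 CPM against 4823 to 5047 CPM in inputs. That list holds collagens that are reported miR-29 targets. None of 4 endothelial markers was in the table, and the summed epithelial, muscle and leukocyte markers stayed at or under 6.17 CPM in every library. Neural markers summed to 11.6 to 22.6 CPM and adipocyte markers to 116 to 489 CPM over the 16 libraries. In whole-cell RNA, fewer cells expressing a gene and less RNA per cell cannot be told apart.

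In the inputs, each of the 6 genes was higher with the miR-29b mimic in every library, by 1.79-fold to 3.18-fold. Across all 12915 genes tested, 7 (0.0542%) were called higher with an adjusted p under 0.05 and none (0%) lower, by edgeR's quasi-likelihood test over the 16 libraries. The 6 genes are among the 7, but they were chosen on these same libraries, so this is no support for them. At an unadjusted p under 0.05, 398 genes were higher and 206 lower, and DESeq2 called 32 higher and 14 lower after adjustment. With the replicate number as a block the same test called 10 higher and 1 lower. The count of called genes depended strongly on the libraries used, with 82 higher and 95 lower in replicates 1 to 3 alone (130 and 208 with the replicate block) and 0 higher when the 2 input groups were fitted without the pulldowns. The seventh gene is Dhcr7, the last enzyme of cholesterol synthesis, at a log2 difference of 1.10 ± 0.17 (SE). Next in the order of p among genes with no site mark came Icmt at 1.13 ± 0.21, Phb at 0.92 ± 0.18 and Sec61a1 at 1.04 ± 0.21, values of the same size as those of the 6 genes.

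Dynlt3 (ENSMUSG00000031176; chromosome X, 9654270 to 9662983, GRCm38.p6) had 178, 177, 171 and 154 CPM in the miR-29b inputs (replicates 1 to 4) and 88.8, 89.7, 91.4 and 67.9 CPM in the scrambled inputs. The groups did not overlap, and the lowest library of each was replicate 4. Its means were 170.0 ± 11.3 CPM with miR-29b and 84.5 ± 11.1 CPM with the scrambled mimic (SD, n = 4), a log2 difference of 1.01 ± 0.13 (SE).

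Srpr (ENSMUSG00000032042; chromosome 9, 35211203 to 35217003) had 96.3, 90.7, 92.3 and 82.3 CPM in the miR-29b inputs and 34.8, 36.4, 32.1 and 21.4 CPM in the scrambled inputs. Again replicate 4 was lowest in both groups and no libraries overlapped. The log2 difference was 1.54 ± 0.23 (SE). Dok4 (ENSMUSG00000040631; chromosome 8, 94863828 to 94876312), the least counted of the 6 genes with 18 to 139 reads per input library, had 3.52, 3.24, 2.44 and 3.14 CPM with miR-29b and 0.993, 0.822, 0.904 and 1.14 CPM with the scrambled mimic. Its log2 difference of 1.67 ± 0.21 (SE) was the highest of the 6, and every miR-29b library exceeded every scrambled one.

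Zmpste24 (ENSMUSG00000043207; chromosome 4, 121059237 to 121098249) had 38.6, 45.9, 42.5 and 33.0 CPM in the miR-29b inputs, against 22.9, 22.0, 21.8 and 17.0 CPM in the scrambled inputs. D1Ertd622e (ENSMUSG00000044768; chromosome 1, 97643902 to 97662018) had 26.2, 32.0, 27.8 and 28.5 CPM with miR-29b and 12.5, 14.3, 15.4 and 16.8 CPM with the scrambled mimic. Adh7 (ENSMUSG00000055301; chromosome 3, 138198064 to 138232042) had 19.8, 21.03, 20.4 and 22.3 CPM with miR-29b and 11.4, 11.5, 11.1 and 12.6 CPM with the scrambled mimic. None of these 3 genes had overlapping libraries, and their log2 differences were close to each other at 0.93 ± 0.16, 0.95 ± 0.13 and 0.84 ± 0.13 (SE). The median log2 difference of the 6 genes was 0.98, beside 0.016 for all genes.

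**Figure D1:**
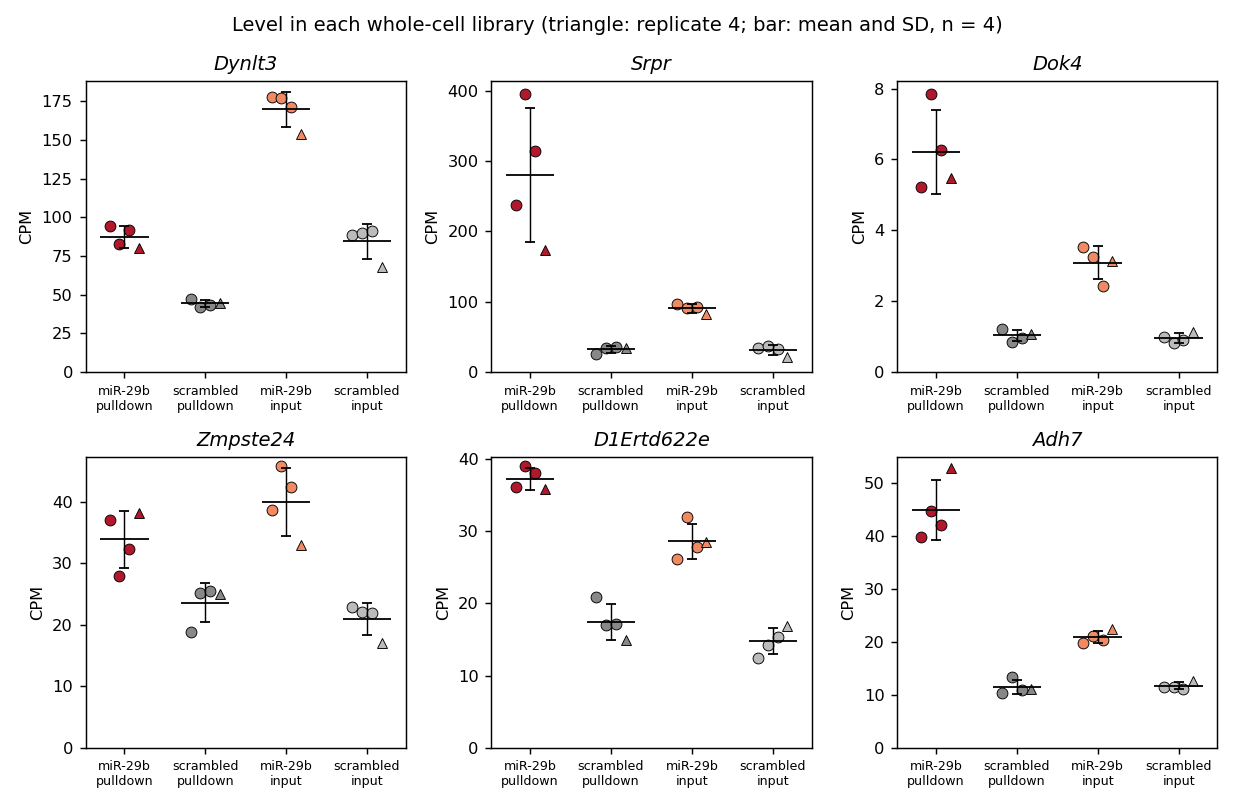
CPM of each gene (vertical axes, linear from 0) in the 16 whole-cell libraries, with circles for replicates 1 to 3, triangles for replicate 4 and bars for the mean and SD of 4 libraries. With either RNA type the miR-29b libraries lie above the scrambled ones, and Srpr has its highest value, 395 CPM, in miR-29b pulldown replicate 2.

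The pulldown libraries were not used to choose the genes, and there all 6 rose with the miR-29b mimic relative to the scrambled mimic (edgeR quasi-likelihood test, adjusted p under 0.05). Of all genes tested, 24.5% were higher and 20.9% lower in this comparison. The spread in that fit comes from all 16 libraries, including the inputs that chose the genes, so its p-values are not fully separate from the choice. Fitted on the pulldowns alone all 6 still passed, with larger edgeR adjusted p-values, from 1.32e-05 in Adh7 to 0.0313 in Zmpste24. The log2 changes of the 6 genes ran from 0.52 in Zmpste24 to 3.12 in Srpr with a median of 1.53, beside −0.10 for all genes. For each of the 6 the lowest miR-29b library exceeded the highest scrambled one. How many of all genes separate in this way was not counted, for the pulldowns, the inputs or pulldown over input. The pulldowns were made from cells carrying the same mimics as the inputs, so this comparison includes any difference present before capture.

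Srpr had 238, 395, 314 and 173 CPM in the miR-29b pulldowns and 25.2, 34.1, 35.3 and 33.8 CPM in the scrambled pulldowns. The miR-29b libraries varied more than 2-fold among themselves, with replicate 4 lowest, yet the lowest was far above the highest scrambled library. The change was 8.71-fold (log2 3.12 ± 0.25 SE, edgeR adjusted p = 1.08e-07), which ranks 317 of the 12915 genes. Dok4 had 5.22, 7.86, 6.28 and 5.47 CPM in the miR-29b pulldowns and 1.23, 0.848, 0.966 and 1.08 CPM in the scrambled pulldowns, a 6.11-fold rise (log2 2.61 ± 0.22 SE, edgeR adjusted p = 1.64e-07). Its scrambled pulldown values rest on 9 to 42 reads. Adh7 had 39.8, 44.7, 42.05 and 52.8 CPM in the miR-29b pulldowns and 10.4, 13.4, 10.9 and 11.0 CPM in the scrambled pulldowns. Its rise was 3.91-fold (log2 1.97 ± 0.13 SE, edgeR adjusted p = 1.87e-08). In this gene replicate 4 was the highest miR-29b library.

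The other 3 genes rose less. D1Ertd622e had 36.2, 39.01, 38.1 and 35.8 CPM in the miR-29b pulldowns and 20.9, 17.03, 17.1 and 14.9 CPM in the scrambled pulldowns, a 2.14-fold rise (log2 1.10 ± 0.13 SE, edgeR adjusted p = 7.01e-06). Dynlt3 had 94.4, 82.8, 91.9 and 80.3 CPM in the miR-29b pulldowns and 47.3, 42.3, 43.7 and 44.4 CPM in the scrambled pulldowns, a 1.97-fold rise (log2 0.98 ± 0.13 SE, edgeR adjusted p = 1.64e-05). Both sets of libraries were tight around their means. Zmpste24 had 37.05, 28.0, 32.3 and 38.2 CPM in the miR-29b pulldowns, against 18.8, 25.1, 25.5 and 25.0 CPM in the scrambled pulldowns, a 1.43-fold rise (log2 0.52 ± 0.15 SE, edgeR adjusted p = 0.0125). The gap between its nearest libraries was small, 28.0 CPM with miR-29b and 25.5 CPM with the scrambled mimic.

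In replicates 1 to 3 alone the 6 genes also rose, with log2 changes of 0.47 (Zmpste24) to 3.32 (Srpr). The call of Zmpste24 was lost with upper-quartile scaling (log2 0.23, edgeR adjusted p = 0.209), which moved the median log2 change of all genes to −0.40; with the authors' library totals that median was 0.23 and Zmpste24 was at 0.80. Relative to each of those medians all 6 genes were higher in the miR-29b pulldown. Zmpste24 also missed the threshold with replicates 1, 2 and 4 (log2 0.58, edgeR adjusted p = 0.0644) and in 10 libraries that omit all replicates 3 and the miR-29b input and scrambled pulldown replicates 4 (log2 0.64, edgeR adjusted p = 0.100), while the other 5 genes passed in each of these settings.

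**Figure D2:**
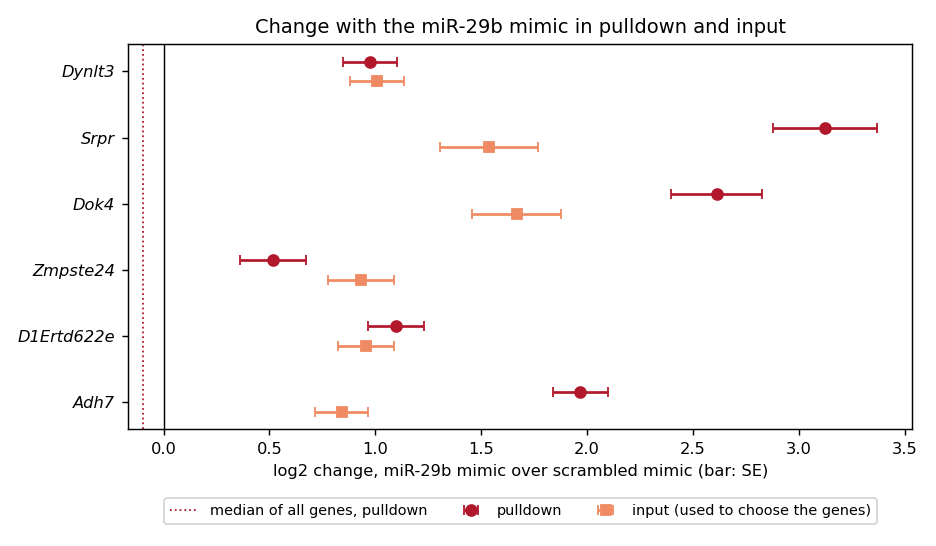
Log2 change of each gene with the miR-29b mimic over the scrambled mimic (horizontal axis) in the pulldown (circles) and in the input (squares), with bars for the SE and a dotted line at the pulldown median of all genes, −0.10. Srpr, Dok4 and Adh7 lie further right in the pulldown than in the input, Dynlt3 and D1Ertd622e have both values close together, and Zmpste24 lies further left in the pulldown.

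Setting each pulldown against its own input divided the 6 genes, given here as values only because the inputs chose them. With miR-29b, Srpr was 3.10-fold higher in the pulldown than in the input, Adh7 2.14-fold and Dok4 2.01-fold (log2 1.63, 1.10 and 1.01), and for each of these the 4 pulldown libraries lay above the 4 input libraries. With the scrambled mimic the same 3 genes had log2 values of 0.04, −0.03 and 0.07, and their libraries overlapped. The excess with miR-29b over the scrambled mimic was therefore 1.59 for Srpr, 1.13 for Adh7 and 0.94 for Dok4 on the log2 scale. D1Ertd622e had a log2 pulldown over input value of 0.38 with miR-29b and 0.24 with the scrambled mimic, an excess of 0.14.

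Dynlt3 was lower in the pulldown than in the input with both mimics, by almost the same amount (log2 −0.96 with miR-29b and −0.93 with the scrambled mimic, excess −0.03). Its order of levels was miR-29b input (170.0 CPM), then miR-29b pulldown (87.3 ± 6.85 CPM) and scrambled input (84.5 ± 11.1 CPM), whose libraries overlapped, then scrambled pulldown (44.4 ± 2.12 CPM; SD, n = 4). Zmpste24 had a log2 value of −0.24 with miR-29b and 0.18 with the scrambled mimic, an excess of −0.42, and its pulldown libraries overlapped its input libraries with either mimic. For Srpr, Dok4, Adh7 and D1Ertd622e the order was miR-29b pulldown, miR-29b input and then both scrambled groups, which overlapped each other. Mean levels of Srpr with miR-29b and with the scrambled mimic were 280 ± 95.7 and 32.1 ± 4.63 CPM in pulldowns, and 90.4 ± 5.89 and 31.2 ± 6.76 CPM in inputs (SD, n = 4).

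The authors' deposited table gives a pulldown score (PE) for each replicate, whose formula was not recovered from the values. In that table Srpr averaged 10.5 over replicates 1 to 3, Dok4 5.84, Adh7 3.23, D1Ertd622e 1.38, Zmpste24 0.34 and Dynlt3 −0.73, the same order as the log2 excess with miR-29b except that Dok4 and Adh7 exchange places, as do Zmpste24 and Dynlt3. The authors' deposited table marks Srpr as a positive hit, a mark carried by 4.19% of all genes, as significant in all lysed replicates (5.05%) and as significant in the intact one (7.23%). Dok4 carries the authors' marks for at least 1 lysed replicate (9.19% of all genes) and the intact one, and Adh7 that for the intact one alone. The other 3 genes carry no mark of significance in the authors' deposited table.

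In the fractions, with 1 library per combination, there is no replicate check, and the intervals below cover counting error only. In the cytoplasmic input all 6 genes were at least 1.5-fold higher with miR-29b, as were 2.77% of all 11568 genes. Dynlt3 had 241 CPM with miR-29b and 97.9 CPM with the scrambled mimic (2.46-fold, 95% exact interval 2.32 to 2.60). Srpr had 95.1 and 43.0 CPM in that order (2.21-fold, 2.03 to 2.42), and Adh7, the lowest ratio, 54.5 and 31.2 CPM (1.75-fold, 1.57 to 1.95). Dok4 rests on 34 reads with miR-29b and 14 with the scrambled mimic (2.80-fold, 1.46 to 5.65). The selection named this table too, so these ratios also describe the chosen genes and are no separate evidence.

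In the nuclear input only Zmpste24 (1.72-fold, 1.53 to 1.94) and Dynlt3 (1.71-fold, 1.47 to 2.00) of the 6 genes passed 1.5-fold, beside 2.58% of all genes. Srpr was at 1.30-fold (1.17 to 1.46). The intervals of D1Ertd622e (1.24-fold, 0.982 to 1.56), Adh7 (1.15-fold, 0.983 to 1.34) and Dok4 (13 reads with miR-29b and 17 with the scrambled mimic, 0.767-fold, 0.343 to 1.68) included no difference. Whether the mimic's difference is larger in the cytoplasm than in the nucleus was not tested.

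The cytoplasmic pulldown had 4 of the 6 genes at least 1.5-fold higher with miR-29b, where 31.3% of all genes were. Adh7 stood at 3.30-fold (2.51 to 4.41), Dynlt3 at 3.24-fold (2.85 to 3.70), Zmpste24 at 2.73-fold (2.20 to 3.42) and Srpr at 2.65-fold (2.22 to 3.19). D1Ertd622e was at 1.08-fold (0.844 to 1.39). Dok4 was the 1 gene at least 1.5-fold lower, as were 28.8% of all genes, at 1.43 CPM with miR-29b and 3.09 CPM with the scrambled mimic (0.464-fold, 0.190 to 1.13, 12 reads in each library), and its interval included no difference. In the nuclear pulldown Dok4, Dynlt3 (1.55-fold, 1.24 to 1.94) and Srpr passed 1.5-fold, beside 5.66% of all genes. Dok4 rests there on 15 reads with miR-29b and 7 with the scrambled mimic, and its interval included no difference (1.81-fold, 0.696 to 5.26). Srpr, at 8.71-fold in the whole-cell pulldown, was thus at 2.65-fold in the cytoplasmic and 1.54-fold (1.31 to 1.80) in the nuclear one. None of the 6 genes has the authors' cytoplasmic mark in their deposited table, and the share of all genes that carry it was not counted.

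Dynlt3 was the most cytoplasmic of the 6 by ratio, at 7.84-fold over the nucleus in the miR-29b input (7.10 to 8.67) and 5.46-fold in the scrambled input (4.79 to 6.25). All 6 genes were at least 1.5-fold higher in the cytoplasm in the miR-29b input, against 35.3% of all genes, and Dynlt3 alone was so in the scrambled input, against 34.2%. This count rests on the scaling. Without TMM the median log2 ratio of all genes moved to −0.70 in the miR-29b input and −0.56 in the scrambled input, and Dynlt3 alone passed 1.5-fold in either (log2 2.25 and 1.86). In the miR-29b input the other 5 genes then lay between 0.03 (Zmpste24) and 0.46 (D1Ertd622e) on the log2 scale. In the scrambled input all 5 were below 0, with Dok4 at −0.81, Srpr at −0.46, D1Ertd622e at −0.06, Adh7 at −0.03 and Zmpste24 at −0.01, where TMM had given −0.40 for Dok4 and 0.11 for Srpr. The comparisons between mimics within a fraction kept their counts of the 6 genes past 1.5-fold without TMM, but the shares of all genes moved. The share at least 1.5-fold higher with miR-29b went from 2.77% to 1.94% in the cytoplasmic input and from 2.58% to 4.31% in the nuclear input. In the pulldowns it went from 31.3% to 25.9% in the cytoplasm and from 5.66% to 6.64% in the nucleus.

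**Figure D3:**
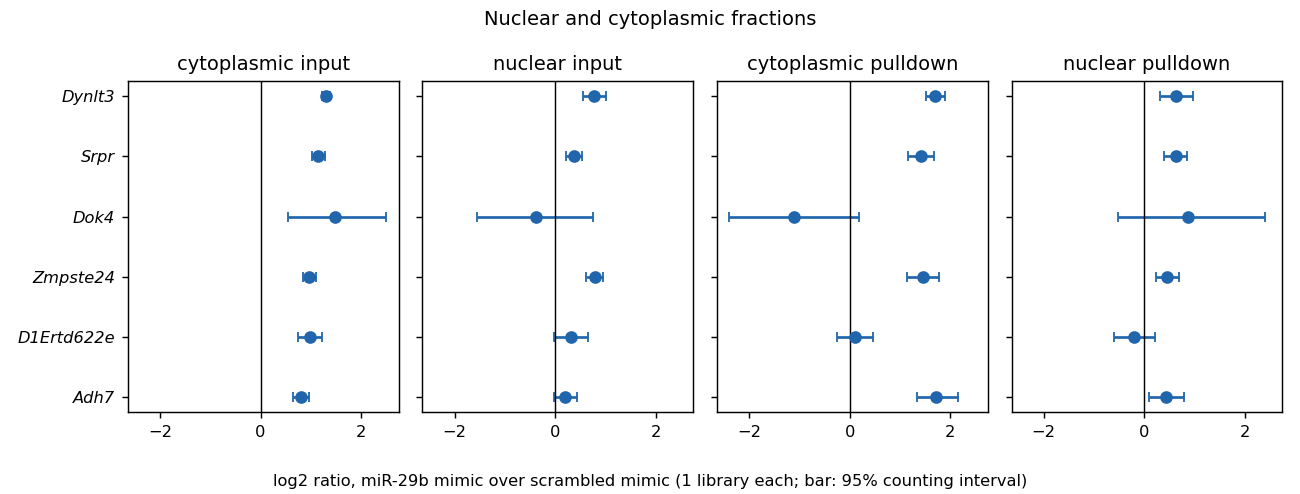
Log2 ratio of miR-29b over scrambled libraries for each gene (horizontal axes) in the cytoplasmic and nuclear inputs and pulldowns, 1 library each, with bars for the 95% counting interval. The cytoplasmic inputs lie right of 0 for all 6 genes, and the intervals of Dok4 are wide because it rests on 7 to 34 reads.

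Across the 16 whole-cell libraries, Srpr, Dok4, D1Ertd622e and Adh7 varied together, with pairwise Pearson correlations of log2 CPM of 0.906 to 0.961. Dynlt3 correlated with these 4 at 0.378 to 0.493 and with Zmpste24 at 0.685, and Zmpste24 with the 4 at 0.658 to 0.727. These are descriptions over libraries that share mimics and capture, and the selection favours them. By the same measure, the genes most like the mean of the 6, among 9136 genes with at least 5 CPM, were Tmem30a (r = 0.924), a chaperone of lipid flippases, Dhcr7 (0.913), Ube2w (0.910), a ubiquitin-conjugating enzyme, Sh3bgrl (0.899), a small thioredoxin-fold protein, and Psmb5 (0.895), a catalytic subunit of the proteasome. None of the 5 has a site mark, which only 3.94% of all genes tested carry. Ube2w, for example, averaged 155 ± 41.8 CPM with miR-29b against 33.7 ± 3.48 CPM with the scrambled mimic in pulldowns, and 91.1 ± 4.35 against 56.9 ± 9.86 CPM in inputs (SD, n = 4).

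Of 113 genes in the pathways around the 6, 97 were tested. In the inputs none of the 97 passed the threshold in edgeR's test over all 16 libraries, 5 had an unadjusted p under 0.05, and DESeq2 called 2 higher and 1 lower. The 2 are Icmt, which methylates prenylated proteins, among them the prelamin A that Zmpste24 trims, and Sec61a1, the channel of the translocon to which the receptor subunit Srpr delivers ribosomes; they were named after their values were seen. Icmt averaged 24.0 ± 0.934 CPM in the miR-29b input and 10.9 ± 2.20 CPM in the scrambled input (log2 1.13 ± 0.21 SE, edgeR adjusted p = 0.0899). Sec61a1 averaged 115 ± 30.3 CPM in the miR-29b input and 56.0 ± 3.50 CPM in the scrambled input (log2 1.04 ± 0.21 SE, edgeR adjusted p = 0.161). In replicates 1 to 3 alone both passed (edgeR adjusted p = 0.00201 for Icmt and 8.23e-05 for Sec61a1). Without miR-29b input replicate 4, Sec61a1 alone passed (log2 1.18, edgeR adjusted p = 0.00868), without scrambled input replicate 4 Icmt alone did (log2 1.28, edgeR adjusted p = 0.0360), and without miR-29b pulldown replicate 4 both did. The gene DESeq2 called lower is Dync1h1, the dynein heavy chain (log2 −0.44, DESeq2 adjusted p = 0.0499).

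In the pulldowns 25 of the 97 neighbours were higher and 24 lower, near the shares of all genes, with a median log2 change of −0.03 beside the −0.10 of all genes. Of 22 dynein and dynactin genes around Dynlt3, 3 rose and 6 fell. The heavy chain Dync1h1 fell (log2 −1.76 ± 0.13 SE, edgeR adjusted p = 7.71e-08) and so did Dctn1, the largest dynactin subunit (log2 −1.52), whereas the dynein regulator Pafah1b1 rose (log2 1.85). Of 23 genes of the signal recognition particle and translocon, 5 rose, among them the translocon-associated Tram1 (log2 1.53) and the signal peptidase subunit Sec11a (log2 1.75), and 4 fell, among them Srp19 (log2 −2.33). Srprb, the beta subunit that anchors Srpr in the membrane, had a log2 value of −0.04 ± 0.16 SE (edgeR adjusted p = 0.875) in the pulldown and −0.02 ± 0.16 SE in the input.

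Of 10 adaptors around Dok4, 4 rose and 2 fell in the pulldown. Frs2 (log2 2.69), Crk (1.06) and Irs1 (1.86), which all link receptors to downstream kinases, had the smallest p. Of 18 lamin and CAAX-processing genes around Zmpste24, 7 rose and 6 fell. The chromatin-tethering factor Banf1 (log2 3.31), the prelamin-binding protein Narf (3.67) and the nuclear envelope protein Sun1 (1.33) had the smallest p. Narf, unlike Banf1 and Sun1, carries a site mark in the authors' deposited table. Lmna, which encodes the prelamin A that Zmpste24 cleaves, rose in the pulldown (log2 1.49 ± 0.32 SE) and had a log2 value of 0.01 ± 0.32 SE in the input. Of 5 UNC119 pathway genes around D1Ertd622e, the ciliary GTPase Arl13b rose (log2 1.13) and its relative Arl3, which releases cargo from UNC119, fell (log2 −0.55), and Unc119 itself had a log2 value of −0.63 ± 0.41 SE (edgeR adjusted p = 0.226). Of 19 retinoid genes around Adh7, 5 rose and 5 fell. Rdh11 (log2 3.30) and Rdh10 (1.36), retinol dehydrogenases of another enzyme family, rose, as did the retinoic acid hydroxylase Cyp26b1 (2.07). With the authors' library totals 33 neighbours were higher and 8 lower.

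**Figure D4:**
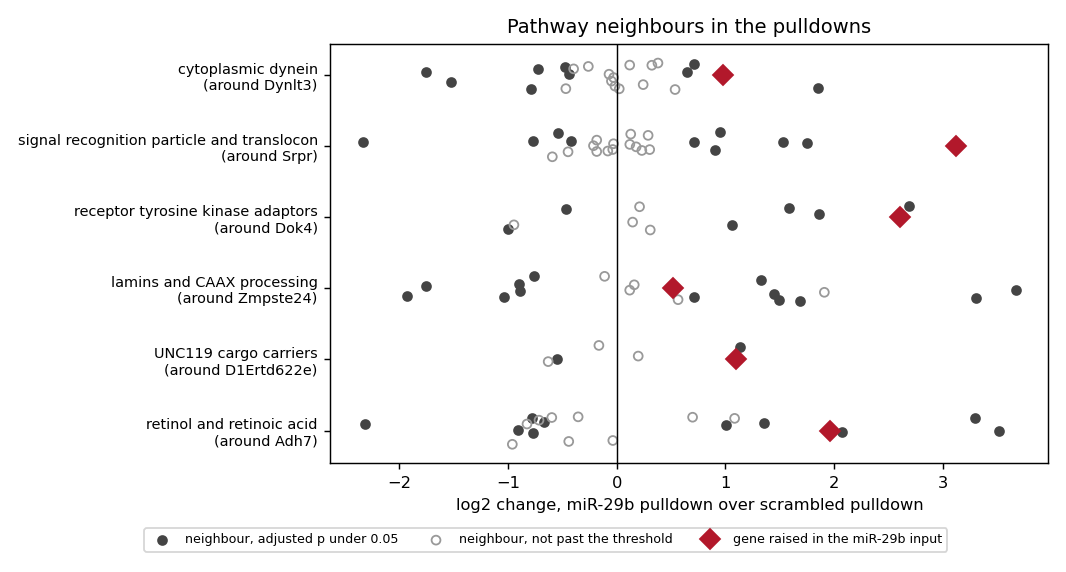
Log2 change in the miR-29b pulldown over the scrambled pulldown (horizontal axis) for the 97 pathway neighbours, 1 row per pathway, with filled points for adjusted p under 0.05, open points for the others and a diamond for the gene the pathway was drawn around. Neighbours lie on both sides of 0 in every row, and Srpr at 3.12 lies right of all 23 genes of its row.

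For comparison, 8 reported miR-29 targets (Col1a1, Col1a2, Col3a1, Sparc, Lamc1, Tet3, Dnmt3a and Mcl1) all rose in the pulldown, as did 24.5% of all genes. Their log2 changes were 2.20 to 5.04. In the inputs none of them passed the test, and all had log2 values above 0, from 0.03 to 1.87. Tet3 (1.87 ± 0.78 SE), Col1a1 (0.95 ± 0.49) and Mcl1 (0.86 ± 0.38) exceeded Adh7, the lowest of the 6 genes at 0.84, with larger SE. The other targets lay below it. Counting was not stated to use strand, and reads of overlapping genes may be shared. Srpr overlaps Fam118b, which had a log2 value of 0.24 ± 0.21 SE in the input and rose by 0.63 ± 0.21 SE in the pulldown (edgeR adjusted p = 0.0252). Foxred1, whose annotated span ends 32 bases from Srpr, had log2 values of −0.04 ± 0.21 SE in the input and 0.40 ± 0.21 SE in the pulldown (edgeR adjusted p = 0.132). Dok4 overlaps Polr2c, an RNA polymerase II subunit, which fell in the pulldown (log2 −1.03 ± 0.18 SE, edgeR adjusted p = 0.000196) and was at 0.10 ± 0.17 SE in the input. Adh7 overlaps the lncRNA gene 0610031O16Rik and Zmpste24 the snRNA gene Gm23540, neither of which was among the genes tested. Dynlt3 and D1Ertd622e have no other gene of the RefSeq table within 5000 bases.

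The genes were chosen for being higher before capture, and their promoters were examined for common motifs. RefSeq promoters (GRCm38.p6, 250 bases before to 50 after the start) were matched for 5 of the 6 genes, all but Dok4, and the window of Adh7 lies inside the annotated span of the gene. Their GC content ran from 39.3% in Adh7 to 77.7% in D1Ertd622e, beside a median of 52.7% over 32817 promoters. On either strand, TGACG, the core of the cAMP response element, was found in Dynlt3, Srpr and Zmpste24 (20.8% of all promoters). CCAAT was found in Adh7, Srpr and Zmpste24 (37.4%), and the GC box GGGCGG in Dynlt3, D1Ertd622e and Srpr (35.6%). TATAAA, the letters of the TATA box, was found in Adh7 (13.6%), only on the reverse strand and at −202 from the start. The E-box CACGTG was found in none of the 5 (7.1%). No motif of these was in all 5 windows. The promoters of the 3 genes with TGACG are shown 5′ to 3′ on the gene's strand, with capitals for matches of these motifs on either strand. Srpr lies on the plus strand at chr9:35210953-35211252, Dynlt3 on the minus strand at chrX:9662934-9663233 and Zmpste24 on the minus strand at chr4:121098161-121098460.
Srpr: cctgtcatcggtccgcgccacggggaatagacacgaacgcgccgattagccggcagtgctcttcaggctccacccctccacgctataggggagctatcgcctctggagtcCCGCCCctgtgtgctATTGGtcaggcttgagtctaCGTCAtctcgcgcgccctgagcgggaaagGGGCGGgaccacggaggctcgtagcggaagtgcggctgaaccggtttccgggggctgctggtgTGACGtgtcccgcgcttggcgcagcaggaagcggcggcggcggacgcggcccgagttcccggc
Dynlt3: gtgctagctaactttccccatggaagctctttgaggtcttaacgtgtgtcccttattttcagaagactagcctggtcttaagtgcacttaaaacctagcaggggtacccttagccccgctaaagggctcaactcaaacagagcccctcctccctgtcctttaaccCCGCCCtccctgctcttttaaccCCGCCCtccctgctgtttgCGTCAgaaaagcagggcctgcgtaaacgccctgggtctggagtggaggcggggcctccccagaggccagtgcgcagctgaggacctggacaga
Zmpste24: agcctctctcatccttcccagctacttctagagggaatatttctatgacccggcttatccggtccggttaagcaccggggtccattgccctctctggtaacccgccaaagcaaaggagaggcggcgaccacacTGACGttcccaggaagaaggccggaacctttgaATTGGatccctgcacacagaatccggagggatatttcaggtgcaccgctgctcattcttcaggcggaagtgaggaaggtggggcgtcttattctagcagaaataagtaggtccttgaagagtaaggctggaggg
Srpr has 2 TGACG matches, 1 of them on the reverse strand, and the other promoters 1 each. A match is a description of the letters in the window.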

How the data were processed

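Per the submitters' processing notes, reads were aligned with STAR 2.3.0 to mm10; for the counting tool and the use of strand, the sources used here give nothing. The authors deposited raw counts per gene, which were tested here, and CPM values equal to the count plus 1 over a library total, of which the listed counts were 48.9% to 87.3% in whole-cell libraries. The authors' deposited score (PE) and TRUE or FALSE marks were used as descriptions. Repeat lines (518 of 14052) were dropped, leaving 13534 genes. Counts were fitted with edgeR 4.0.16 in R 4.3.3 (filterByExpr, TMM, group means over 16 libraries, quasi-likelihood test, two-sided, Benjamini-Hochberg over 12915 genes, threshold 0.05; 619 genes were filtered and all 6 genes described were tested). CPM printed here use TMM-scaled totals. Fraction ratios were called at 1.5-fold with a prior count of 5, over genes with at least 20 counts, with exact conditional binomial intervals at a level of 0.95. The code was tested on simulated data. The 6 genes and the lists were chosen with earlier results of these data known. Named genes were the 6, up to 3 per list with the smallest p in the pulldown, the 5 with the highest correlation, and 8 reported targets; Lmna, Icmt, Sec61a1, Srprb, Unc119, Phb and genes overlapping or next to the 6 were added after values were seen. Same-numbered inputs deviated together (r = 0.506 to 0.717, own number best in 4 of 4). Of the same-numbered pulldowns, 3 of 4 correlated best with their own number (r = 0.156 to 0.365) and replicate 3 did not (−0.07). The main fit holds no replicate term, so its SE and p-values ignore the pairing seen in the inputs. The replicate block was run only as an alternative setting. Coordinates and sequences are from RefSeq tables of GRCm38.p6.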

Additional observations from a re-analysis of the deposited data

Results flagged for a closer look

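Of the 24 sets of 4 libraries (6 genes in 4 groups), 3 held a library whose gap to the nearest other exceeded Dixon's critical share of the group's range, where chance gives about 1 in 20 sets. Dynlt3 was low in scrambled input replicate 4, at 67.9 CPM, beside 88.8 to 91.4 CPM in the other 3. Srpr was low in scrambled pulldown replicate 1, at 25.2 CPM, and so was Zmpste24 in the same library, at 18.8 CPM. That library has the fewest listed counts of the 16 (7409157), and its part in these low values was not tested.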

How the results depend on the processing

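The 6 genes were higher in the miR-29b input under every alternative, but they were chosen for this, so it is no support for them. In the pulldown comparison 5 of them passed under all. The call of Zmpste24 was lost with upper-quartile factors (log2 0.23), with replicates 1, 2 and 4 (0.58) and in 10 libraries (0.64); the cause was not tested. With one library left out at a time, Zmpste24 stayed past the threshold (log2 0.46 to 0.60). The count of genes lower in the pulldown, 2703, became 4333 with upper-quartile factors, 1094 with the authors' library totals, 1463 with replicates 1, 2 and 4, 955 in 10 libraries (with 2086 higher), and 4095 in replicates 1 to 3 with the replicate block, the last chosen after seeing the data. Neighbours lower in the pulldown, 24, became 8 with the authors' totals and 9 in 10 libraries. In the input, the 7 higher genes became 1 with the authors' totals, 0 with only the groups compared, with replicates 1, 2 and 4 and in 10 libraries, 32 (14 lower) with DESeq2, 82 (95 lower) in replicates 1 to 3 and 130 (208 lower) there with the replicate block; the replicate block alone gave 10 higher and 1 lower. Neighbours called higher in the input, 0, became 2 with DESeq2 (1 lower) and in replicates 1 to 3 with or without the replicate block. Leaving out single libraries gave 1 to 11 higher and 0 to 2 lower genes in the input, and 0 to 2 neighbours higher. The replicate block changed no call of the 6 genes. Without TMM, the log2 cytoplasm over nucleus values in the scrambled input reversed to −0.011 for Zmpste24, −0.061 for D1Ertd622e and −0.034 for Adh7, and Srpr moved to −0.46 (0.11 with TMM); in the miR-29b input 1 gene in place of 6 passed 1.5-fold. Depth limits Dok4 most, with 7 to 34 reads in the fractions.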
